A study of Arabidopsis thaliana with 36 samples.

Results

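Aux/IAA proteins are short-lived nuclear repressors of auxin responses. They bind auxin response factors (ARFs) and recruit TOPLESS (TPL) corepressors to ARF target genes, and auxin removes them by joining them to TIR1/AFB receptors, which leads to their destruction. Many Aux/IAA genes are themselves induced by auxin, so their transcripts are often used as readouts of the pathway. Described here are 10 Aux/IAA genes, chosen by locus with earlier results of these data known. On the TAIR10.1 assembly, IAA1 (AT4G14560) lies at chr4:8360996-8362033 and IAA14 (AT4G14550) at chr4:8347822-8350263, IAA2 (AT3G23030) at chr3:8180646-8182095 and IAA7 (AT3G23050) at chr3:8194606-8197161, and IAA3 (AT1G04240) at chr1:1128149-1129689 and IAA17 (AT1G04250) at chr1:1136078-1138663. The others are IAA5 (AT1G15580) at chr1:5365512-5366497, IAA6 (AT1G52830) at chr1:19672476-19673652, IAA19 (AT3G15540) at chr3:5264001-5265695 and IAA29 (AT4G32280) at chr4:15583332-15584903. All 10 are among the 32548 genes of the deposited tables, and all 10 passed the filter on low values that left 23297 genes for testing.

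Transcripts were measured by RNA-seq in whole 12-day-old Arabidopsis thaliana seedlings grown on plates of Murashige and Skoog medium in long days. There were 12 genotypes with 3 libraries each, 36 libraries in all: wild type and 11 homozygous mutants of SWI/SNF chromatin remodelling complexes, which use an ATPase to move or evict nucleosomes. The mutants were brm (BRM ATPase), brd1213 (brd1-/-, brd2-/- and brd13-/-), brip12 (brip1-/- and brip2-/-), syd (SYD ATPase), swi3d, sys123 (sys1-/-, sys2-/- and sys3-/-), minu12 (minu1-/- and minu2-/-, ATPases), pms2ab (pms2a-/- and pms2b-/-), swp73b, bcl7ab (bcl7a-/- and bcl7b-/-) and an3. From knowledge of the study, brm, brd1213 and brip12 belong to the BAS class of complex, syd, swi3d and sys123 to SAS, and minu12 and pms2ab to MAS; swp73b, bcl7ab and an3 were placed in no class. The labels name no alleles, and they do not say whether the 3 libraries of a genotype came from separate plants or plates, so the p-values measure the spread between libraries, which may be technical.

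Recovered library totals ran from 21070583 to 23761910 reads. Levels are given in CPM, the read count scaled for depth and by edgeR's TMM factor to a common library size, where 1 CPM is 23.1 reads. The TMM factor allows for differences in RNA composition. It ran from 0.8676 in a bcl7ab library to 1.134 in a swp73b library. Of 7 mutated genes with a name in the reference annotation, 5 fell in their own mutant, SYD rose in the libraries labelled syd (log2 change 0.72, adjusted p = 1.92e-05 by limma), and AN3 was not called in those labelled an3 (log2 change 0.06, adjusted p = 0.896). Directions given for syd and an3 are therefore those of the libraries so labelled. The 7 genes checked are those of brm, syd, swi3d, minu12, swp73b and an3. Mutated genes of brd1213, brip12, sys123, pms2ab and bcl7ab were not checked, so these labels are taken as given. All 6 green tissue markers were above 1 CPM in every genotype. The same held for all 8 root markers in 8 genotypes, with 1 or 2 of them lower in syd, swi3d, sys123 and bcl7ab. In whole seedlings, fewer cells of a type and less RNA per cell cannot be told apart.

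The 300-base window from 250 bases before to 50 after the annotated gene start was read for each gene from the TAIR10.1 assembly with RefSeq gene starts; the deposited tables hold locus names without coordinates, and the submitters' notes name TAIR10. The windows of IAA19 (chr3:5263751-5264050, plus strand), IAA6 (chr1:19673603-19673902, minus strand), IAA5 (chr1:5366448-5366747, minus strand) and IAA29 (chr4:15583082-15583381, plus strand) are shown: IAA19 holds 3 copies of an auxin response element, IAA6 shares a stretch with it, IAA5 holds both forms of the element, and IAA29, which varied most across genotypes, holds none. Capitals mark TGTCTC and TGTCGG, forms of the element that ARFs bind, on either strand, and CACGTG, the G-box bound by PIF and other bHLH or bZIP factors.
IAA19: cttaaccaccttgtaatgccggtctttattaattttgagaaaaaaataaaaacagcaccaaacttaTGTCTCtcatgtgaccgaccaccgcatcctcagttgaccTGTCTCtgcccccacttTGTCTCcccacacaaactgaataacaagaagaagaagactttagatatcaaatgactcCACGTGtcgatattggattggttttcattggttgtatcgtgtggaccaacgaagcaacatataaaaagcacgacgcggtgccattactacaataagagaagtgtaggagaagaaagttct
IAA6: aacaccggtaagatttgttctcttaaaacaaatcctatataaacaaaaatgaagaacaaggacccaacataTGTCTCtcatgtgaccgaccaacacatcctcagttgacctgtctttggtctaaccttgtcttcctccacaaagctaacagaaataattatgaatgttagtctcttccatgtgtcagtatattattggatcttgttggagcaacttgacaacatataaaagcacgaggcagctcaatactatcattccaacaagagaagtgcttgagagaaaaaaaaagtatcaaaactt
IAA5: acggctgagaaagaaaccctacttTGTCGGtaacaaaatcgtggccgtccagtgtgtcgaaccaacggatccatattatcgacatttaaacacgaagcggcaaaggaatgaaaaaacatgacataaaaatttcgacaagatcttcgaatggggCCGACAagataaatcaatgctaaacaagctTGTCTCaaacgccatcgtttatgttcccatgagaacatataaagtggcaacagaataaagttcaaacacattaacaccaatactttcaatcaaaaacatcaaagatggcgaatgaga
IAA29: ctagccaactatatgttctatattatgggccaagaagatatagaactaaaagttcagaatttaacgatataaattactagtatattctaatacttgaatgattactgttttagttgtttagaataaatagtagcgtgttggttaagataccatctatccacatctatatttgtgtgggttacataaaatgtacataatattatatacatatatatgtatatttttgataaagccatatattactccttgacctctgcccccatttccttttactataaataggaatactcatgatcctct

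TGTCTC stood in the windows of 4 of the 10 genes (IAA1, IAA5, IAA6 and IAA19), against 14.2% of 27443 protein-coding genes searched the same way. TGTCGG stood in 2 of 10 (IAA1 and IAA5), against 5.12%, and CACGTG in 3 of 10 (IAA7, IAA14 and IAA19), against 7.68%. The shorter letters TGTC, which the first 2 motifs contain, stood in 7 of 10 windows, against 81.5%. The windows of IAA6 and IAA19 share an 82-base stretch with 69 identical bases, from position -189 to -108 in IAA6 and from -194 to -113 in IAA19. The next best match between any pair of the 10 windows covered 13 bases. A match of letters is a description and not a binding site.

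**Figure D1:**
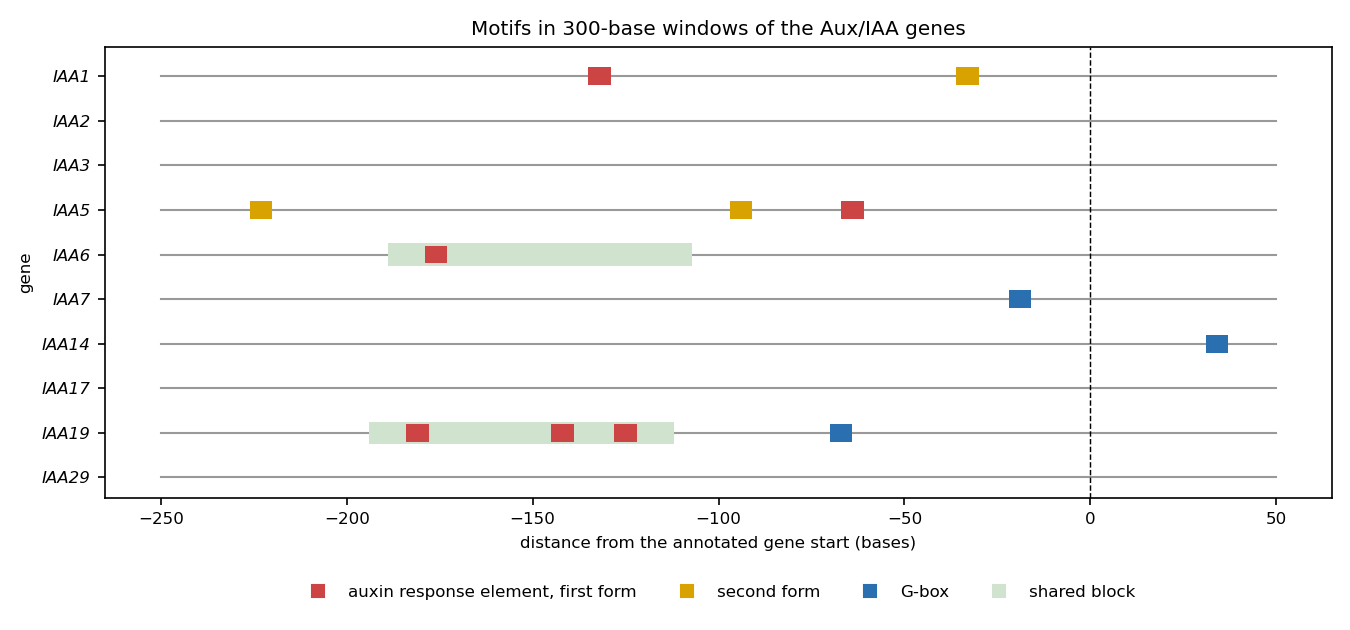
Positions of the 3 motifs in the 300-base windows of the 10 genes, by distance in bases from the annotated gene start (dashed line); the first form of the auxin response element is TGTCTC and the second TGTCGG, and green bands mark the 82-base stretch shared by IAA6 and IAA19. IAA2, IAA3, IAA17 and IAA29 hold none of the 3 motifs in this window.

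In wild type, the levels per kilobase of exon spanned a wide range. IAA2 was highest at 210 ± 27.5 CPM per kb (SD, n = 3), followed by IAA7 (96.2), IAA19 (80.2), IAA29 (76.9) and IAA1 (62.5). IAA17 (27.7), IAA3 (21.5), IAA5 (15.9) and IAA14 (14.4) were lower, and IAA6 was lowest at 12.2 ± 0.851 CPM per kb. No 50-base stretch of the exons of any of the 10 occurred elsewhere in the genome, although coding sequences were up to 85.6% identical (IAA1 and IAA2).

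Against wild type, the 10 genes gave 110 gene-by-mutant comparisons, of which 52 fell, 16 rose and 42 were not called at an adjusted p under 0.05 (limma, adjusted over all genes tested in each mutant). Falls were 47.3% and rises 14.5% of these comparisons, where over all genes tested and the same 11 mutants 16.8% fell and 16.5% rose. Since the 10 were chosen with earlier results of these data known, these shares describe the 10 and do not extend to the family. Among the 19 other Aux/IAA genes 27.3% of comparisons fell and 10.5% rose. The 11 comparisons share the same 3 wild-type libraries. In brm 9 genes fell and 0 rose, where 25.5% of all genes tested fell and 24.7% rose. In brd1213 3 fell and 2 rose (10.6% and 9.23% of all genes), and in brip12 2 fell and 4 rose (13.2% and 11.8%). In the libraries labelled syd 7 fell and 0 rose (11.3% and 11.9%). In swi3d 6 fell and 3 rose (11% and 11.2%), and in sys123 6 fell and 3 rose (12.8% and 14.2%). In minu12 5 fell and 0 rose (24.8% and 24.1%), and in pms2ab 5 fell and 1 rose (29.8% and 29%). In swp73b 8 fell and 0 rose (25.5% and 23.9%). In bcl7ab 1 fell and 2 rose (14.2% and 16.4%), and in the libraries labelled an3 0 fell and 1 rose (5.74% and 5.03%). In brm the count of calls went from 9 to 6 without brm replicate 1, where those of IAA2, IAA7 and IAA19 were lost. The count went from 5 to 3 in brd1213 without wild-type replicate 3 or brd1213 replicate 1, and from 5 to 3 in minu12 without wild-type replicate 1. In an3 it went from 1 to 0 without wild-type replicate 3 or an3 replicate 3 (2 without an3 replicate 1 or 2).

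**Figure D2:**
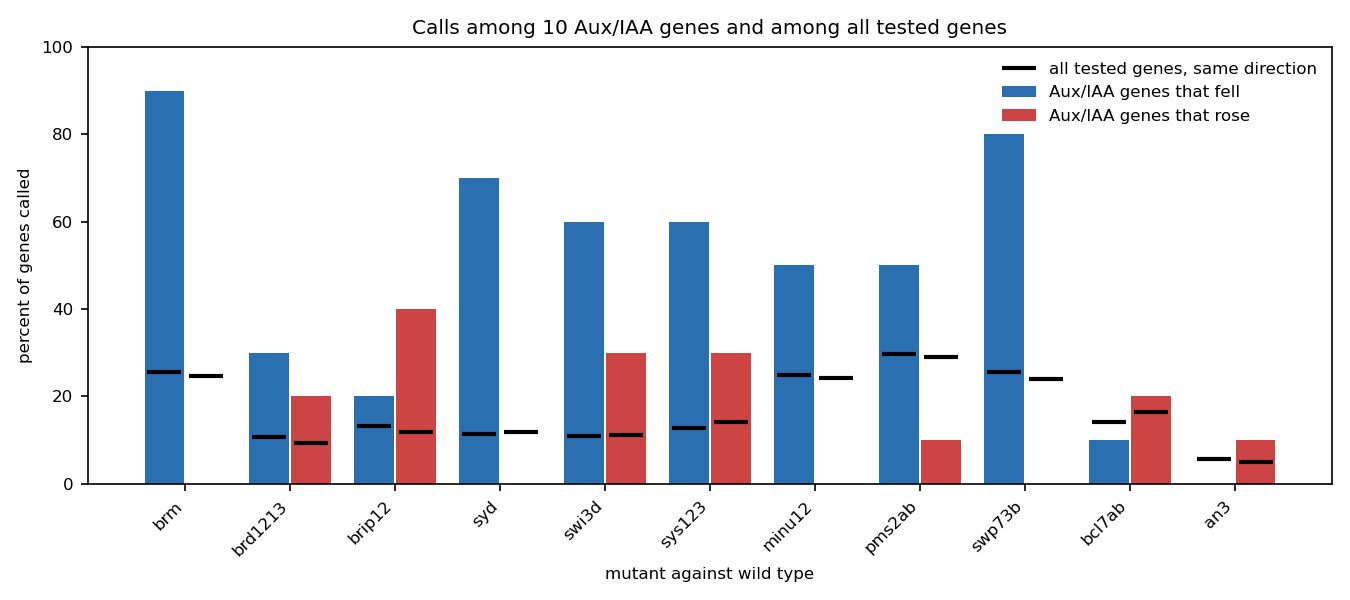
Percent of the 10 Aux/IAA genes that fell (blue bars) or rose (red bars) in each mutant at an adjusted p under 0.05 (limma), with the percent of all 23297 genes tested called in the same direction (black lines). The share that fell was above that of all genes in 9 mutants and below it in bcl7ab and an3. In brip12 (2 fell, 13.2% of all genes), bcl7ab (1, 14.2%) and an3 (0, 5.74%) the difference was less than 1 of the 10 genes. In brip12 more of the 10 rose (4) than fell.

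The median log2 change of the 10 genes was lowest in swp73b at -1.47, followed by brm (-0.79), syd (-0.7), swi3d (-0.54) and sys123 (-0.5). It was -0.32 in minu12, -0.26 in pms2ab, -0.14 in brd1213, -0.01 in bcl7ab, 0.04 in an3 and 0.08 in brip12. The median over all genes lay between -0.02 and 0.02 in every mutant.

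Markers of organs and stages also differed between genotypes, and their part in the changes of the Aux/IAA genes was not tested. The 8 root markers summed to 72.9 to 92.2 CPM in the wild-type libraries. Their sum lay wholly above that in 6 mutants, highest in swp73b (125 to 171 CPM). In brip12, swi3d, sys123, minu12 and bcl7ab it lay between 98.9 and 132. Among these 6, limma called 5 of the 8 as rising in swp73b (23.9% of all genes rose). It called 3 in brip12 (11.8%) and 2 each in swi3d (11.2%) and minu12 (24.1%), with 0 falls in these 4 mutants. Single root markers went both ways in bcl7ab (2 rose and 2 fell) and sys123 (1 rose and 1 fell). The 6 green tissue markers summed to 26300 to 39600 CPM in wild type, wholly below in pms2ab (20100 to 24400) and wholly above in bcl7ab (43500 to 49600). Their sum overlapped wild type in the other mutants, swp73b among them (21600 to 27700). By limma, 5 of the 6 were called as falling in pms2ab (29.8% of all genes fell). The falls were 4 in swp73b (25.5%), 3 in brm (25.5%), 2 in brip12 (13.2%) and 1 each in brd1213 (10.6%) and minu12 (24.8%). In bcl7ab 4 were called as rising (16.4%). The 5 flower markers summed to 5.77 to 9.62 CPM in wild type, where 4 of them averaged under 1 CPM. Their sum lay wholly above wild type in 8 mutants, most in brm (65.9 to 103) and swp73b (66.3 to 93.8). Then came pms2ab (39.7 to 48.5), syd (36.8 to 44), minu12 (35.2 to 38.2), brd1213 (27 to 31), swi3d (16.5 to 23.6) and brip12 (13.7 to 17.1). In brd1213, brip12, syd and swi3d 4 of the 5 flower markers still averaged under 1 CPM. By limma, 1 of the 5 was called as rising in each of brd1213, brip12 and syd. The calls were 2 in each of pms2ab and swp73b and 3 in each of brm, swi3d and minu12, with 1 fall in minu12. The 4 seed markers, all under 1 CPM in wild type (summed 0.542 to 0.828), lay wholly above it in pms2ab (34 to 93.9), minu12 (4.34 to 331), brm (3.7 to 37), brd1213 (1.92 to 26.2) and bcl7ab (0.844 to 93.6), and wholly below in brip12 (0.279 to 0.523) and an3 (0.133 to 0.243). In swp73b they ran from 0.814 to 209 CPM, so libraries of 1 genotype differed widely. Called by limma as rising were all 4 seed markers in brm, minu12 and pms2ab and 3 in swp73b, but 0 in brd1213 and bcl7ab. In brip12 and an3 0 were called as falling.

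**Figure D3:**
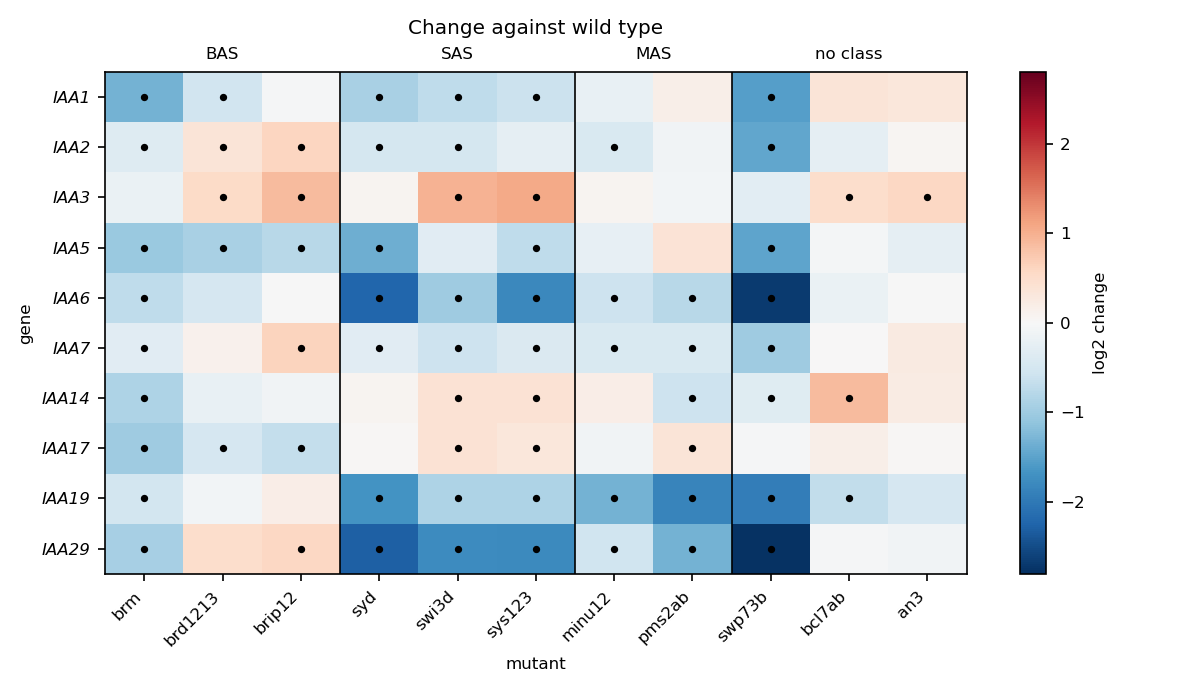
Log2 change of each of the 10 genes in each mutant against wild type (color), with a dot where the adjusted p was under 0.05. The columns are ordered by class; swp73b holds the lowest values (IAA29, -2.77, and IAA6, -2.69) and sys123 the highest (IAA3, 1.06).

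IAA29, a known target of the PIF factors that is induced in shade, varied most, from 146 CPM in brip12 to 14.5 in swp73b, a 10.1-fold span. Its wild-type libraries had 94.1, 122 and 80.1 CPM. The swp73b libraries had 17.3, 15.5 and 10.6 CPM, all below wild type, a log2 change of -2.77 ± 0.22 (SE, adjusted p = 5.44e-11 by limma). The libraries labelled syd had 15, 23.4 and 22.4 CPM (-2.28), and it also fell in sys123 (-1.79), swi3d (-1.75), pms2ab (-1.32) and brm (-0.93). The brd1213 libraries, at 145, 124 and 142 CPM, lay above wild type, a change that was not called (0.49, adjusted p = 0.113 by limma). The highest mean was that of brip12, at 149, 149 and 139 CPM, all above wild type, a log2 change of 0.58 ± 0.22 (adjusted p = 0.0465). That rise was lost without wild-type replicate 1 (adjusted p = 0.109) or 3 (0.208) and without brip12 replicate 1 (0.11), 2 (0.101) or 3 (0.0768). The fall in minu12 (-0.55, adjusted p = 0.034) was lost without wild-type replicate 1 (0.0593) or 2 (0.182) and without minu12 replicate 1 (0.144) or 3 (0.0826).

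IAA6 and IAA19, close relatives whose windows share the stretch shown above, fell in 7 and 8 mutants and rose in 0. IAA19, known from the msg2 mutant with altered hypocotyl bending, had 83.6, 82.6 and 76.7 CPM in wild type. It fell to 25.6, 18.3 and 20.1 CPM in swp73b (log2 change -1.94 ± 0.2, adjusted p = 8.95e-09 by limma). It fell almost as far in pms2ab (25.8, 25.8 and 17.5 CPM, -1.84), and also in syd (-1.68), minu12 (-1.32), swi3d (-0.87), sys123 (-0.86) and bcl7ab (-0.68). In brm its libraries had 46.2, 81.3 and 49.3 CPM, 1 of them within the wild-type range, and the fall (-0.51, adjusted p = 0.0369) was lost without brm replicate 1 (0.202) or 3 (0.15) or wild-type replicate 1 (0.0876), 2 (0.0805) or 3 (0.05). IAA6 had 11.2, 9.73 and 10.4 CPM in wild type and 1.68, 1.81 and 1.3 in swp73b (-2.69 ± 0.21, adjusted p = 4.39e-11). Its other falls of more than 1 on the log2 scale were in syd (-2.21) and sys123 (-1.8), and its fall in minu12 (-0.58) was lost without minu12 replicate 2 (adjusted p = 0.11) or wild-type replicate 1 (0.072).

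**Figure D4:**
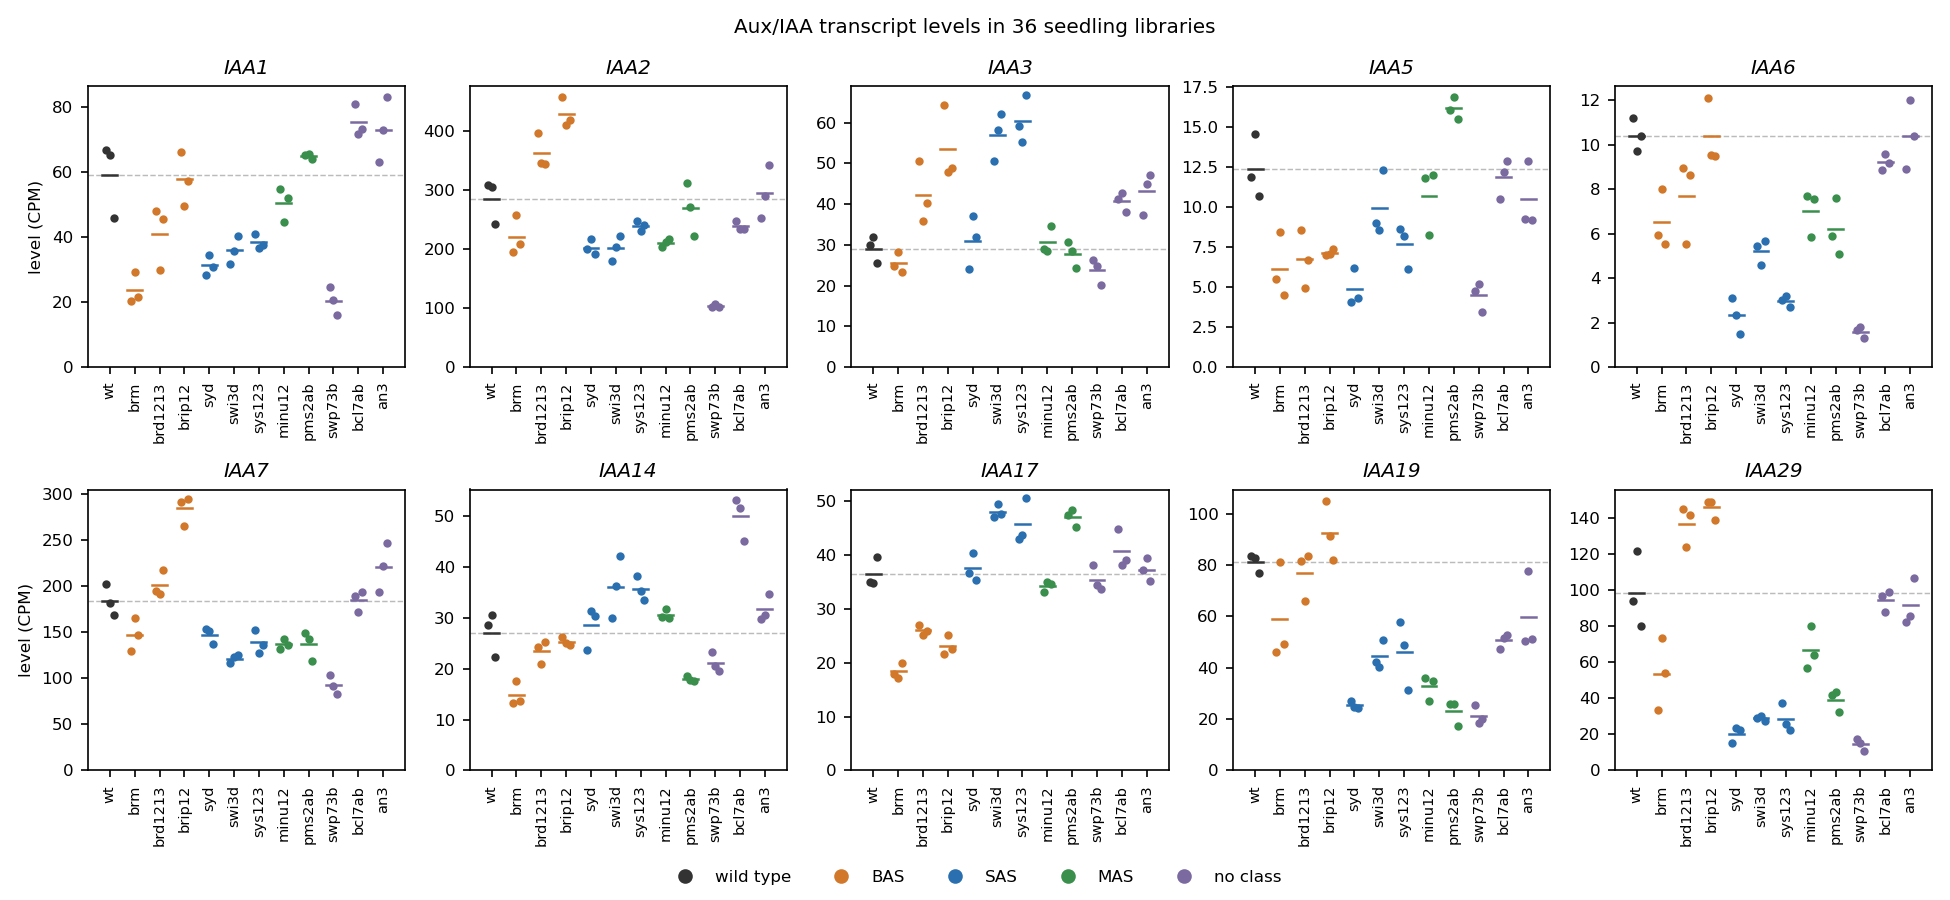
Levels of the 10 genes in all 36 libraries in CPM; points are libraries, short lines are means of 3 libraries, and the dashed line is the wild-type mean. For IAA29 every library of swp73b, syd, swi3d, sys123, pms2ab, brm and minu12 lies below every wild-type library. Those of brip12 and brd1213 lie above, though the change in brd1213 was not called.

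IAA3, IAA14 and IAA17 showed other patterns. IAA3, known as SHY2, which restrains root meristem size, rose in 6 mutants and fell in 0. Its levels were 29.9, 31.9 and 25.5 CPM in wild type and 59.3, 55.2 and 66.7 CPM in sys123, all above wild type (log2 change 1.06 ± 0.15, adjusted p = 3.68e-06 by limma). It also rose in swi3d (0.97), brip12 (0.88), an3 (0.57), brd1213 (0.53) and bcl7ab (0.49). Without wild-type replicate 3 the calls in an3 (adjusted p = 0.0688), bcl7ab (0.0784) and brd1213 (0.06) were lost, as were those in an3 without its replicate 3 (0.0595) and in brd1213 without its replicate 1 (0.0875). IAA3 shares 536 of its 1355 exonic bases with AT1G04230 on the opposite strand; whether counting used strand is not stated, and AT1G04230 itself averaged 8.79 to 12.5 CPM in the 12 genotypes.

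IAA17, the AXR3 gene, had 35, 34.8 and 39.7 CPM in wild type and was lower in each BAS mutant. It fell to 17.9, 17.2 and 20 CPM in brm (log2 change -0.99 ± 0.08, adjusted p = 5.67e-11 by limma), and also in brip12 (-0.66) and brd1213 (-0.48), with no overlap with wild type in any of the 3. It rose in swi3d, at 47, 49.4 and 47.6 CPM (0.4 ± 0.08, adjusted p = 0.000419), in pms2ab (0.37) and in sys123 (0.32). IAA14, the SLR gene that blocks lateral root formation when its protein is stabilised, had 28.5, 30.6 and 22.3 CPM in wild type. It was highest in bcl7ab, at 53.2, 51.6 and 45.1 CPM (0.89 ± 0.12, adjusted p = 2.57e-06), and lowest in brm, at 13.2, 17.5 and 13.7 CPM (-0.87 ± 0.12, adjusted p = 7.89e-07). It also fell in pms2ab (-0.58). Its smaller changes lost their calls when a library was left out: the rise in swi3d (0.41) was lost without wild-type replicate 3 (adjusted p = 0.128) or swi3d replicate 3 (0.124), that in sys123 (0.4) without wild-type replicate 3 (0.145) or sys123 replicate 1 (0.0669), and the fall in swp73b (-0.35) without wild-type replicate 1 (0.0701) or 2 (0.113) or swp73b replicate 3 (0.0805).

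IAA1, IAA2, IAA5 and IAA7 fell most in swp73b. IAA1, the AXR5 gene, had 66.7, 65 and 45.7 CPM in wild type and 24.6, 20.6 and 15.9 in swp73b (log2 change -1.54 ± 0.17, adjusted p = 1.83e-08 by limma), and fell nearly as far in brm (-1.32). IAA5 had 11.9, 14.6 and 10.7 CPM in wild type and 4.78, 5.19 and 3.46 in swp73b (-1.47 ± 0.22, adjusted p = 2.16e-06), and fell in all 3 BAS mutants (-0.78 to -1.05). Both fell in 6 mutants and rose in 0. The fall of IAA1 in brd1213 (-0.54) was lost without wild-type replicate 1 (adjusted p = 0.11) or 2 (0.0907) or brd1213 replicate 2 (0.211), and that of IAA5 in sys123 (-0.7) without wild-type replicate 2 (0.0743) or sys123 replicate 3 (0.105).

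IAA2 had 308, 305 and 242 CPM in wild type, 101, 106 and 102 in swp73b (log2 change -1.46 ± 0.11, adjusted p = 6.18e-11 by limma) and 458, 410 and 419 in brip12 (0.6 ± 0.11, adjusted p = 0.000207). IAA7, the AXR2 gene, had 202, 181 and 168 CPM in wild type, 103, 91.9 and 82.6 in swp73b (-0.99 ± 0.1, adjusted p = 6.03e-09) and 291, 265 and 294 in brip12 (0.63 ± 0.1, adjusted p = 1.86e-05). For both genes the swp73b libraries lay below, and the brip12 libraries above, every wild-type library. The falls of IAA7 in brm and syd (both -0.32) were lost without wild-type replicate 1 (adjusted p = 0.0628 and 0.119), brm replicate 1 (0.0858) or syd replicate 3 (0.0966). The fall of IAA2 in brm (-0.37) was lost without brm replicate 1 (0.0657), and its rise in brd1213 (0.35) without wild-type replicate 3 (0.188) or brd1213 replicate 1 (0.134).

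When the 12 genotypes were ordered by the mean level of each gene, 11 of the 110 pairs of adjacent genotypes differed at an adjusted p under 0.05. Another 11 pairs were not called although their libraries did not overlap. No share over all genes was worked out for such pairs, so both counts are a description. With 3 libraries per genotype, a lack of overlap can arise without a difference in level. For IAA5, IAA19 and IAA29 no adjacent pair was called, but 1, 2 and 3 of their pairs had libraries that did not overlap, such as IAA29 in brd1213 and wild type (log2 difference 0.49, adjusted p = 0.113 by limma) and IAA19 in swi3d and minu12 (0.45, adjusted p = 0.0692). The clearest steps were those of IAA2 between swi3d (202 CPM) and swp73b (103 CPM, adjusted p = 3.35e-07 by limma) and of IAA17 between minu12 (34.2 CPM) and brd1213 (26.1 CPM, adjusted p = 0.000118).

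Between classes, the mean of the BAS mutants exceeded that of the SAS mutants for 5 genes and was lower for 3 (27.4% and 28.8% of all genes). The largest difference was that of IAA29, 1.99 ± 0.12 on the log2 scale (adjusted p = 4.72e-14 by limma), followed by IAA6 (1.27) and IAA19 (1), while IAA17 was lower in BAS (-0.96). BAS exceeded MAS for 5 genes and was lower for 4 (31.7% and 32.9%), led by IAA19 (1.44) and IAA5 (-0.99). SAS exceeded MAS for 4 genes and was lower for 4 (35.3% and 34.3%), with IAA3 higher (0.69) and IAA6 and IAA29 lower (both -1). Of these calls, IAA14 between BAS and MAS was lost in 9 and IAA17 between SAS and MAS in 9 of the fits that left out 1 library, with adjusted p up to 0.08 and 0.111. The class p-values measure the spread between libraries and not that between the mutants of a class, so they do not extend to other mutants. IAA3 was higher in swi3d and sys123 than in either MAS mutant. In syd (31 CPM) it was not called against minu12 (30.8 CPM, adjusted p = 0.982 by limma) or pms2ab (0.414).

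Mutants of a class differed among themselves. In BAS, 9 genes were called between brip12 and brm (47.6% of all genes) and 7 between brd1213 and brm (39%), all of them lower in brm. IAA29 differed by 1.51 ± 0.22 on the log2 scale (adjusted p = 1.31e-06 by limma) and 1.41 ± 0.22 (adjusted p = 8.05e-06). Between brip12 and brd1213 1 gene was called, IAA7, higher in brip12 by 0.5 (3.06% of all genes), and 2 without brd1213 replicate 1. In SAS, 7 genes were called between swi3d and syd (21.6%), 4 between sys123 and syd (18.3%) and 1 between sys123 and swi3d (15.5%), IAA6. The 7 genes ranged from 5 to 8 when a library was left out. Among them, IAA7 (adjusted p = 0.0478 by limma) and IAA14 (0.0467) lost their calls without a filter (0.0748 and 0.0792). Both were also lost with the replicate block (0.0553 and 0.0516) and in many fits that left out 1 library. The 4 genes became 2 without syd replicate 3 or sys123 replicate 1. IAA3 was higher in swi3d than in the libraries labelled syd by 0.89 ± 0.15 (adjusted p = 4.34e-05) and higher in sys123 by 0.98 ± 0.15 (adjusted p = 1.4e-05). In MAS, 5 genes were called between pms2ab and minu12 (29.2%), and 3 without minu12 replicate 2 or pms2ab replicate 1 or 3: IAA14 was lower in pms2ab by 0.76 (adjusted p = 2.48e-05) and IAA17 higher by 0.46 (adjusted p = 6.07e-05).

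Of the 10 genes, 6 lie in 3 divergent pairs with no coding gene between them: IAA3 and IAA17 (gap of 6388 bp, chromosome 1), IAA2 and IAA7 (12510 bp, chromosome 3) and IAA1 and IAA14 (10732 bp, chromosome 4). Over the 12 genotype means on the log2 scale, which share their libraries, r was 0.9 for IAA2 and IAA7, 0.46 for IAA1 and IAA14 and 0.22 for IAA3 and IAA17, given as a description. IAA7 and IAA2 had nearly as high an r with IAA29 on another chromosome (0.88 and 0.84). In brip12 and brd1213 the members of the IAA3 and IAA17 pair went opposite ways: IAA3 rose (0.88 and 0.53) and IAA17 fell (-0.66 and -0.48). IAA1 and IAA14 parted in swi3d and sys123, where IAA1 fell (-0.71 and -0.6) and IAA14 rose (0.41 and 0.4, calls lost without wild-type replicate 3, adjusted p = 0.128 and 0.145). The highest r among the 10 was 0.92 (IAA6 and IAA29) and the lowest -0.49 (IAA17 and IAA19).

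**Figure D5:**
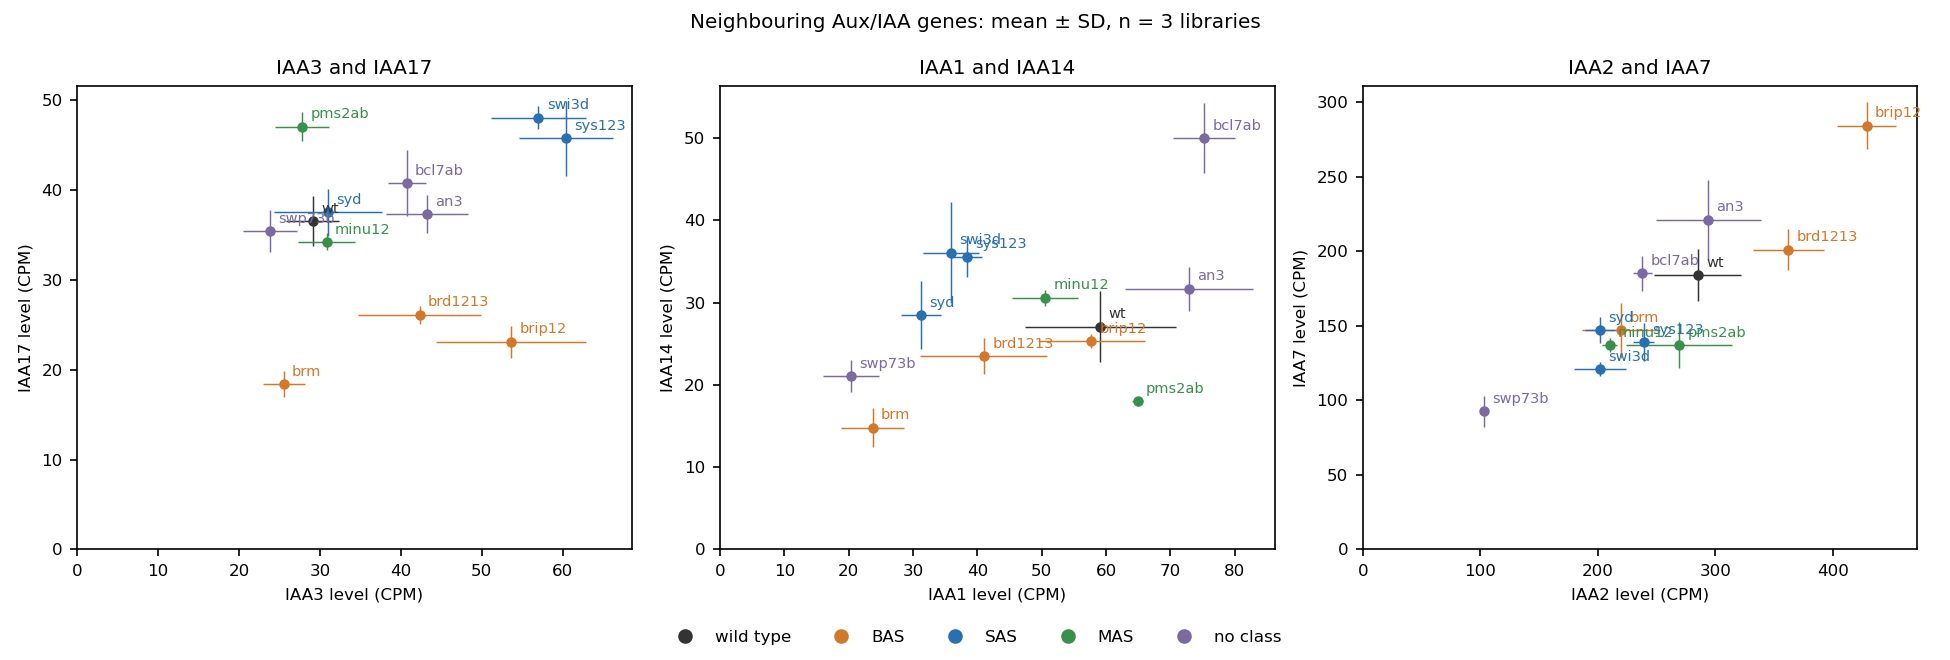
Mean level of each gene of the 3 neighbouring pairs in the 12 genotypes (CPM; bars are SD over 3 libraries). IAA2 and IAA7 are both lowest in swp73b and highest in brip12, while in the plot of IAA3 and IAA17 brip12 and brd1213 lie to the lower right of wild type.

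The genes whose 12 genotype means were most like each gene, among 8122 genes with a symbol and at least 2 CPM, were found by Pearson r. IAA19 was most like IAA30 (r = 0.974), another Aux/IAA gene, then FLP1 (0.933) and IAA13 (0.931). IAA14 was most like ABA1 (0.982), an abscisic acid synthesis gene, GLDP1 and GLDP2. IAA29 was most like IAMT1 (0.951), which methylates auxin, MKK9 and EXLB1, and IAA6 most like EXLB1 (0.943), LINC2 and MYB60. For IAA3 they were FRO8, APRL6 and PKS2, for IAA17 NPC2, FLS3 and AOS, for IAA1 BXL1, TBL10 and PP2-A14, for IAA2 BSK1, PSY1 and GUS1, for IAA5 ENODL1, SCPL51 and ATSBT5.2, and for IAA7 HSI2, BEH4 and FD. Among libraries of the same genotype, over the deviations of 36 libraries from their genotype means, r for these 30 pairs ran from -0.52 to 0.69 with a median of 0.3. It was below 0 for IAA17 and NPC2 (-0.52), IAA29 and MKK9 (-0.12), IAA6 and EXLB1 (-0.11) and IAA3 and APRL6 (-0.07), and 0.02 for IAA19 and IAA13.

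The other genes of the pathway are set beside the shares over all genes in the 11 mutants, 16.8% falling and 16.5% rising. Among the 19 other Aux/IAA genes, 57 of 209 gene-by-mutant comparisons fell (27.3%) and 22 rose (10.5%), with 11 falls in pms2ab and 10 in swp73b (29.8% and 25.5% of all genes fell there); without wild-type replicate 3 the rises numbered 14. IAA30 fell from 5.42 to 1.07 CPM in pms2ab (log2 change -2.3). Of 165 comparisons of 15 ARF genes, 43 rose (26.1%) and 22 fell (13.3%); ARF3 rose in syd (1), swi3d (0.89) and sys123 (1.2), while ARF18 fell most in pms2ab (-2.18). The 6 TIR1/AFB receptor genes rose in 10 of 66 comparisons (15.2%) and fell in 20 (30.3%; 13 falls without wild-type replicate 1), and the 5 TPL corepressor genes rose in 6 of 55 (10.9%) and fell in 13 (23.6%).

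Of 132 comparisons of 12 SAUR genes, early auxin-induced growth genes, 52 fell (39.4%) and 25 rose (18.9%). Falls numbered 11 in brm, 8 in brd1213 and 7 in brip12, where 25.5%, 10.6% and 13.2% of all genes fell, 9 in swp73b (25.5%), 6 in pms2ab (29.8%), 5 in minu12 (24.8%), 5 in syd (11.3%) and 1 in swi3d (11%). The 5 falls in syd became 2 without wild-type replicate 1 or syd replicate 1 and 3 without wild-type replicate 2, and the 1 in swi3d became 0 without any 1 of its own libraries. Rises numbered 6 in sys123 (14.2% of all genes rose) and 4 each in minu12 (24.1%), bcl7ab (16.4%) and an3 (5.03%). They numbered 2 each in swi3d (11.2%), pms2ab (29%) and swp73b (23.9%) and 1 in syd (11.9%). The 6 rises in sys123 became 2 without wild-type replicate 3, and the 2 in pms2ab became 4 without pms2ab replicate 3. SAUR22 fell from 32.9 to 3.84 CPM in brm (-3.15); SAUR19 to SAUR24 are near-identical copies whose reads may be split between them. SAUR16 rose from 17.5 to 52.5 CPM in sys123 (1.62).

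Of 66 comparisons of 6 GH3 genes, which conjugate auxin to amino acids, 27 fell (40.9%) and 16 rose (24.2%), against 16.8% and 16.5% over all genes. GH3.5 fell from 187 to 39.1 CPM in swp73b (log2 change -2.26) and from 187 to 52.2 CPM in the libraries labelled syd (-1.84). Of 110 comparisons of 10 PIF and shade genes, 43 fell (39.1%) and 19 rose (17.3%); PIF4, the factor of warmth and shade growth, fell in brm (-1.2), swp73b (-1.14), pms2ab (-1.09) and minu12 (-0.82), and was not called in syd (-0.19) or swi3d (-0.14). The 5 LBD genes of lateral roots rose in 6 of 55 comparisons (10.9%) and fell in 3 (5.45%), both below the shares over all genes. The falls numbered 0 without wild-type replicate 1, 1 without wild-type replicate 3 and 5 without bcl7ab replicate 3.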

How the data were processed

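Per the labels' protocols, sequencing of total RNA was single-end, 50 bp, by BGISEQ500. HISAT2, edgeR and the build TAIR10 are named in the submitters' processing notes, without versions. The deposited values are a normalized signal, taken here to be edgeR pseudo-counts, with the 3 wild-type columns identical in all 11 tables. Undoing it with a dispersion of 0.0127, fitted here, gave whole reads that return 99.999% of the 1171728 values to within 1e-04; 11 values missed, by up to 0.415.

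CPM is the deposited value over a common library size of 23089154 reads. The main test was limma 3.58.1 with trend (R 4.3.3) on log2(value + 1) in 1 fit of all 36 libraries, keeping genes that averaged 1 or more; changes of low genes are understated on this scale. p-values were adjusted by Benjamini-Hochberg within each comparison and called under 0.05. Alternatives were other scalings, filters and pseudocounts, the replicate block, fits of only the groups compared, each library left out, and edgeR 4.0.16 and DESeq2 1.42.0 on the recovered reads. The fit was tested on simulated data. Mutant libraries did not deviate together with the wild-type library of the same number (r from -0.21 to 0.15). That check does not cover mutant libraries of the same number against each other. The members, their lists and the tests were chosen with earlier results of these data known. Each gene is described in wild type and in the mutants of its largest rise and fall. Promoter windows and gene lengths come from RefSeq on TAIR10.1; all 32548 loci matched its gene table.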

Additional observations from a re-analysis of the deposited data

How the results depend on the processing

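Of the 68 calls in single mutants, none was lost with median-ratio scaling, a stricter filter, a pseudocount of 0.1 or 5, the replicate block or edgeR. The calls lost numbered 1 with DESeq2 (IAA19 in brm), 4 without a filter, 5 with library totals, 8 with only the groups compared and 16 when a library was left out. Between classes, IAA17 between SAS and MAS (0.11) lost its call with library totals (0.02, adjusted p = 0.729), without a filter (0.0506) and with the replicate block (0.0527), and IAA14 between BAS and MAS with edgeR (0.0552) and without a filter (0.0639). By the labels, same-numbered libraries share only a number. With library totals, the share of calls that rose over all genes moved from 47.3% to 36.8% in brip12, 52.5% to 31.7% in sys123, 48.3% to 61.2% in swp73b, 53.6% to 25.3% in bcl7ab and 46.7% to 32.1% in an3, and the median of all genes in bcl7ab from 0 to -0.16. The cause was not tested.

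With a change of at least 2-fold required, fewer calls remained by construction: 2 in brm, 0 in brd1213, 0 in brip12, 4 in syd, 1 in swi3d, 3 in sys123, 1 in minu12, 2 in pms2ab, 6 in swp73b, 0 in bcl7ab and 0 in an3. Between classes, 3 remained for BAS against SAS, 1 for BAS against MAS and 1 for SAS against MAS. Within classes, 1 remained for brd1213 against brm, 3 for brip12 against brm, 0 for brip12 against brd1213, 2 for swi3d against syd, 0 for sys123 against syd, 0 for sys123 against swi3d and 0 for pms2ab against minu12. Adjacent levels gave 0 pairs. No share over all genes is given at this threshold, so these counts and those of the gene lists are a description. Over all mutants, rises and falls were 4 and 18 for the other Aux/IAA genes, 2 and 6 for ARF, 0 and 0 for TIR1/AFB, 0 and 0 for TPL, 9 and 28 for SAUR, 3 and 11 for GH3, 2 and 0 for LBD and 7 and 16 for PIF and shade genes.

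Library totals gave 18 differing pairs of adjacent levels and 2 genes for sys123 against syd. No filter left 1 LBD fall. Only the groups compared gave 3 genes in brd1213, 2 for sys123 against syd, 12 rises of other Aux/IAA genes and 1 LBD fall. In brm that fit lost the calls of IAA2, IAA7 and IAA19. With a library left out, counts ranged from 6 to 9 in brm, 3 to 5 in brd1213, 3 to 5 in minu12 and 0 to 2 in an3. Within classes they ranged from 1 to 2 for brip12 against brd1213 and 5 to 8 for swi3d against syd. The ranges were 2 to 5 for sys123 against syd and 3 to 6 for pms2ab against minu12. Falls ranged from 13 to 21 for TIR1/AFB and 0 to 5 for LBD, and rises of other Aux/IAA genes from 14 to 23. These counts within classes, of adjacent levels and of gene lists were put through the alternatives by a choice made after seeing the data.

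None of the 68 calls changed direction. Among changes that were not called, 38 values of 22 small differences changed sign, none of them called. With library totals, those of the 10 genes were IAA17 in swp73b (0.07), bcl7ab (-0.01) and an3 (-0.03), IAA7 in bcl7ab (-0.15) and IAA2 in an3 (-0.02). With a library left out, the log2 change ranged from -0.2 to 0.08 for IAA1 in brip12, -0.02 to 0.25 for IAA1 in pms2ab, -0.07 to 0.15 for IAA2 in an3, -0.21 to 0.04 for IAA2 in pms2ab, -0.07 to 0.25 for IAA3 in syd, -0.01 to 0.15 for IAA3 in minu12 and -0.16 to 0.03 for IAA3 in pms2ab. It ranged from -0.16 to 0.07 for IAA5 in bcl7ab, -0.13 to 0.04 for IAA6 in brip12, -0.12 to 0.09 for IAA6 in an3, -0.05 to 0.09 for IAA7 in bcl7ab, -0.06 to 0.02 for IAA7 between SAS and MAS, -0.22 to 0.01 for IAA14 in brip12 and -0.06 to 0.2 for IAA14 in syd. It ranged from -0.02 to 0.1 for IAA17 in syd, -0.1 to 0.02 for IAA17 in swp73b, -0.01 to 0.09 for IAA17 in an3, -0.14 to 0.03 for IAA19 in brd1213, -0.18 to 0.12 for IAA29 in bcl7ab, -0.23 to 0.07 for IAA29 in an3 and -0.14 to 0.27 for AN3 in an3. Of the 47 values of the 10 genes that were not called, in mutants or between classes, 6 were called with a library left out, 3 with library totals and 1 each with DESeq2, edgeR and only the groups compared.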
